A study of Mus musculus with 15 samples.

Results

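The comparison described here is between mouse bone marrow-derived macrophages (BMDMs) stimulated for 24 h with LPS and BMDMs stimulated for 24 h with LPS and IFNγ together (LPS/IFNγ), with 3 RNA-Seq libraries in each group. It is taken over protein-coding genes, of which 13025 passed the filter on low counts among 16919 genes of all types, and it asks what the transcriptome gained or lost when IFNγ stood beside LPS. The cells came from wild-type female C57BL/6NTac mice aged 8 to 10 weeks, were differentiated with 10 ng/mL M-CSF and were stimulated in medium with 1% FBS. Cells of 5 mice were pooled before seeding, so the libraries of a group were technical replicates and every SD, SE and p measured the spread between cultures and libraries, not between mice. The other groups of the series were PBS, fully reduced HMGB1 (frHMGB1) and disulfide HMGB1 (dsHMGB1) at 5 µg/mL, 3 libraries each.

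LPS alone was given at 1000 ng/mL, and IFNγ at 20 ng/mL. The LPS dose of the combined group was not the same in all sources: the treatment field of the sample labels gave 1 µg/mL, whereas the protocol text of the labels and the methods of the study gave 100 ng/mL. If the lower dose was the one used, the LPS/IFNγ group differed from the LPS group in IFNγ and in the amount of LPS, and the effects of these cannot be told apart in any difference given here.

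LPS, a component of the outer membrane of Gram-negative bacteria, is bound by CD14 and by the TLR4 and MD-2 complex, and signals through MyD88 to NF-κB and AP-1 and through TRIF to IRF3 and type I interferon. IFNγ, a cytokine made mainly by T cells and NK cells, binds IFNGR1 and IFNGR2, and the kinases JAK1 and JAK2 relay the signal to gamma-activated sites in DNA. Type I interferon acts through a complex with IRF9 on the interferon-stimulated response element, a sequence that IRF1 and IRF8 also recognise. Macrophages given both signals are known as classically activated or M1 macrophages and are described by antigen presentation, nitric oxide production and killing of intracellular microbes.

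Promoter stretches of genes that the results below turn on are shown to let the 2 elements be seen in place. They were taken from the RefSeq promoter table on GRCm38.p6, which holds the 250 bases before each RefSeq start, are written 5′ to 3′ on the strand of the gene, and lie outside annotated exons. Capitals mark matches, on either strand, to TTCNNNGAA (the gamma-activated site) and to the interferon-stimulated response element, searched as a pair of GAAA blocks with any 2 bases between them; adjacent matches of the latter can share a block.
Irf8, chr8:120736162-120736238, plus strand: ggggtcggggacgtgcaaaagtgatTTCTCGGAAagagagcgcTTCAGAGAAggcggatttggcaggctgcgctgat
Irf1, chr11:53769899-53769957, plus strand: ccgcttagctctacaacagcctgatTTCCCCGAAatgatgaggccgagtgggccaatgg
Igtp, chr11:58199486-58199555, plus strand: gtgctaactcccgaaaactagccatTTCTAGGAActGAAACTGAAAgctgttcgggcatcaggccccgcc
Tgtp1, chr11:48992289-48992359, minus strand: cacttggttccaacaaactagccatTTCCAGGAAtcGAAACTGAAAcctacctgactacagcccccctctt
Gbp2b, chr3:142594685-142594744, plus strand: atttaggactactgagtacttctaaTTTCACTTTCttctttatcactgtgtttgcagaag
Socs1, chr16:10785579-10785644, minus strand: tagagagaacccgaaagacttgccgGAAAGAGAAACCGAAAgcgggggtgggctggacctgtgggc
Cxcl10, chr5:92349068-92349127, minus strand: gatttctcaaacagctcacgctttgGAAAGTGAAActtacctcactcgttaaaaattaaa
Ifit1, chr19:34640760-34640838, plus strand: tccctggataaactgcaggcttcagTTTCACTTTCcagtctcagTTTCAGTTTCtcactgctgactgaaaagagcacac
Ifit3, chr19:34583348-34583441, plus strand: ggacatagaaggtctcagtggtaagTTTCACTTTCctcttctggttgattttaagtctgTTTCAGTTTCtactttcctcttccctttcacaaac
Rsad2, chr12:26456538-26456597, minus strand: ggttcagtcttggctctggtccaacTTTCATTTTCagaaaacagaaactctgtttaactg
Isg20, chr7:78913326-78913384, plus strand: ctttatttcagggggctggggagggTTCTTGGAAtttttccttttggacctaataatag
The first 6 belong to regulators and GTPases, *Cxcl10* is a chemokine gene and the last 4 are antiviral genes. *Irf8*, *Irf1* and *Isg20* held gamma-activated sites only, *Igtp* and *Tgtp1* held both elements within 100 bases of the RefSeq start, and the others held the response element only. The stretch of *Tgtp1* precedes a RefSeq start that lies inside the span of the gene in GENCODE M21, whereas the other stretches lie before that span. Further genes named below also had matches in this window, and the ones shown are examples. Of all 32851 promoters in the table, 7.02% held the first element and 2.98% the second. Shares for genes that rose and genes that fell are not reported here, because promoters were not found for all genes. A promoter on the gene's own strand and within 5000 bases of it was found for 10327 of the 13025 genes, or 79.3%. Among the 227 genes called higher with a log2 fold change above 2 it was found for 164. A match describes the sequence and says nothing about binding.

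In all, 1634 protein-coding genes were higher in LPS/IFNγ than in LPS, or 12.5% of those tested, and 1465 were lower, or 11.2%, at an adjusted p under 0.05 in edgeR's quasi-likelihood test with all 15 libraries in the fit. Most differences were small: 968 of the higher and 973 of the lower genes differed by less than 2-fold. At the other end, 89 of the called genes were over 8-fold higher and 37 over 8-fold lower. By the cut-off of the study, a log2 fold change of 2 without a p, 277 genes (2.13%) were above and 176 (1.35%) were below, and of these 227 and 129 were also called. The normalized counts of the 3 and 3 libraries did not overlap for 8118 genes (62.3%), so non-overlap by itself was common here.

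The number of calls depended on 1 library of another group. PBS replicate 3 correlated with the other PBS libraries at Pearson's r of 0.937 to 0.942 on log2 CPM, against 0.990 to 0.994 for all other pairs of replicates, and the fit shares 1 estimate of the spread of each gene over all groups. Without it, 2854 genes were called higher (21.6% of 13196) and 3938 lower (29.8%). A fit of the 6 LPS and LPS/IFNγ libraries alone called 3263 higher and 4153 lower, and 3055 of the 3099 genes called with all libraries were called in the same direction there. Fold changes rested on the LPS and LPS/IFNγ libraries.

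The results are ordered by the role of the genes, in 27 lists. Shares of calls were far above those over all genes for the guanylate-binding proteins (60.0% higher), the immunity-related GTPases (58.3% higher), the myeloid chemokines (61.5% lower), the inflammatory cytokines (57.1% lower) and the antiviral genes (41.9% lower). They were near the background of 12.5% higher and 11.2% lower for the mitosis genes (4.55% and 13.6%) and the genes of LXR and cholesterol efflux (18.2% and 9.09%), and small lists such as MHC class II (20.0% both ways) rest on few genes. Members of a list share pathways and are not independent, and no test was made over a list. Counts without PBS replicate 3, or with 1 of the 6 LPS and LPS/IFNγ libraries left out, are given where they differ by more than 1.5 times or a named gene lost or gained its call. Without PBS replicate 3 the shares over all genes were 21.6% higher and 29.8% lower, and list counts in that setting stand against these. Unless another fit is named, passing the test refers to the fit of all 15 libraries. The 6 LPS and LPS/IFNγ libraries alone called 3263 of 12074 genes higher and 4153 lower, and many list counts were larger there. Of the guanylate-binding proteins 10 were then higher and 0 lower, and of the antiviral genes 3 and 24.

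**Figure D1:**
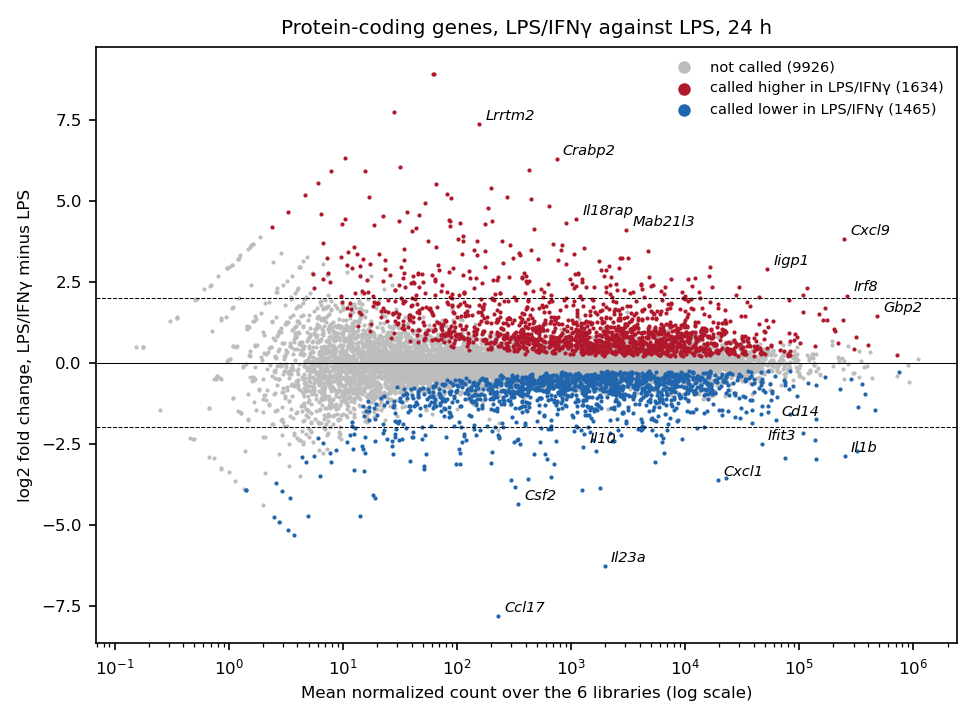
Log2 fold change (LPS/IFNγ minus LPS) against the mean normalized count over the 6 libraries (log scale) for 13025 protein-coding genes. Red points are the 1634 called higher in LPS/IFNγ and blue points the 1465 called lower, dashed lines mark a log2 fold change of 2 in either direction, and *Cxcl9* stands out at high counts among the rises as *Ccl17* and *Il23a* do among the falls.

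Of the genes that carry the IFNγ signal itself, 4 of 15 rose and 3 fell, where 12.5% and 11.2% of all genes did. Their median log2 fold change was 0.06, against -0.06 over all protein-coding genes tested. *Irf8* (chr8:120736358-120756694, plus strand), a transcription factor that directs monocyte and macrophage genes, had normalized counts (counts divided by the size factor of the library) of 97233, 106900 and 100320 in the LPS libraries and 417230, 423170 and 439300 in the LPS/IFNγ libraries. All 3 LPS/IFNγ libraries lay far above the 3 LPS libraries, with a log2 fold change of 2.07 ± 0.06 (SE, n = 3 and 3, adjusted p = 2.58e-09), and the mean of the PBS libraries was 13816 ± 575 (SD, n = 3). *Socs1*, the main feedback inhibitor of JAK2, had 11698, 11594 and 12256 in the LPS libraries and 21168, 19917 and 21095 in the LPS/IFNγ libraries, which is 1.75-fold higher (adjusted p = 0.0062). *Stat3* and *Pias1* also rose, by log2 fold changes of 0.67 ± 0.14 and 0.39 ± 0.10. Both receptor chains fell: *Ifngr1* by 1.77-fold and *Ifngr2* by 1.43-fold. *Irf9*, the DNA-binding part of the complex downstream of type I interferon, fell by 1.87-fold, from 8036 ± 29.5 in LPS to 4305 ± 23.2 in LPS/IFNγ (mean ± SD, n = 3 each). *Irf1*, a textbook IFNγ target gene, did not pass the test at 24 h, with a log2 fold change of 0.27 ± 0.14 (adjusted p = 0.0516). It was already at 116440 normalized counts in LPS alone, against 4684 ± 1019 in PBS. The gamma-activated sites shown above stand in the stretches of *Irf8*, *Igtp* and *Tgtp1*, which rose, of *Irf1*, and of the antiviral gene *Isg20*, which fell. Without PBS replicate 3 *Irf1* passed the test, and *Pias1* lost its call whichever of the 6 libraries was left out (adjusted p 0.0627 to 0.0806).

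Interferon-inducible GTPases attack the vacuoles and membranes of intracellular pathogens and fall into the guanylate-binding proteins (GBPs, tested 10) and the immunity-related GTPases (IRGs, tested 12). Of the GBPs, 6 rose and none fell, with a median of 1.40, and without PBS replicate 3 these counts were 9 and 0. *Gbp2* had 261890, 261350 and 253130 in the LPS libraries and 706280, 689160 and 708070 in the LPS/IFNγ libraries, and every LPS/IFNγ library was above every LPS library. *Gbp2b* and *Gbp4* had the largest changes of the family, at 6.44-fold and 6.18-fold, followed by *Gbp9* at 4.26-fold, *Gbp8* at 4.09-fold and *Gbp6* at 2.59-fold. *Gbp3*, *Gbp5*, *Gbp7* and *Gbp10* did not pass the test, with log2 fold changes between 0.19 and 1.21; all but *Gbp3* passed it without PBS replicate 3. The genes lie in a cluster at chr3:142493978-142638008, where 2 of 5 rose, and one at chr5:105014150-105293698, where 4 of 5 rose. No other protein-coding gene tested lies inside either of them.

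Of the IRGs, 7 rose and none fell, with a median of 0.652, and the members whose promoters are shown above, *Igtp* and *Tgtp1*, were among them. *Iigp1*, which helps disrupt the vacuole of *Toxoplasma* and *Chlamydia*, had 12716, 13288 and 11119 in the LPS libraries and 93506, 91042 and 92486 in the LPS/IFNγ libraries, a 7.46-fold difference (log2 2.90 ± 0.22, SE). *Tgtp1* rose by 7.29-fold, from 487 ± 58.5 in LPS to 3552 ± 198 in LPS/IFNγ (SD, n = 3 each), whereas its near-identical neighbour *Tgtp2* was at 0.78 ± 0.33 (log2, SE) and did not pass the test, although it did without PBS replicate 3. How reads were divided between these copies is not known, so the difference between them is uncertain, and this holds for the GBPs too. *Igtp* and *Irgm1*, also with 40247 and 112640 normalized counts in LPS, rose by less, 1.28-fold and 1.44-fold. On chromosome 18 all 3 members, *Iigp1*, *F830016B08Rik* (12.4-fold) and *Gm4951* (1.85-fold), rose, as did *Gm4841*, the protein-coding gene between them that is no member of the list, at 11.6-fold. In the cluster on chromosome 11, 3 of 7 members rose.

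**Figure D2:**
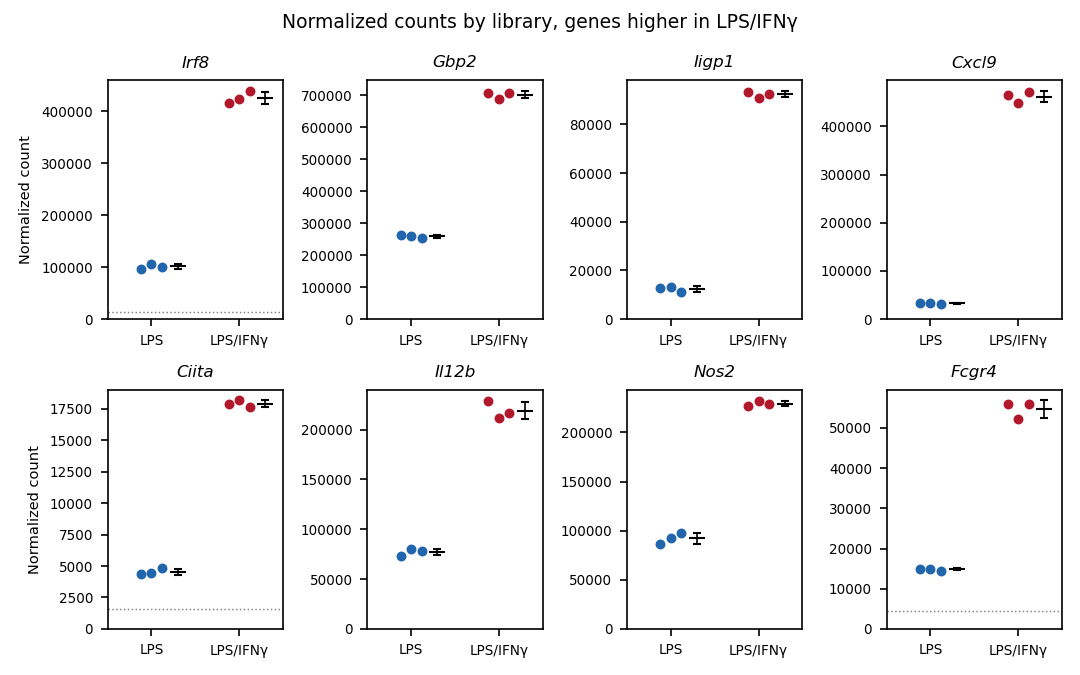
Normalized counts (linear axes from 0) of 8 genes in the 3 LPS libraries (blue) and the 3 LPS/IFNγ libraries (red), with the mean and SD in black beside them and the PBS mean as a dotted line. In each of the 8 panels the 3 LPS/IFNγ libraries lie above the 3 LPS libraries.

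In antigen presentation, the master regulator of MHC class II and the class II genes themselves did not move together. *Ciita*, the co-activator that turns on class II genes, had 4358, 4442 and 4821 in the LPS libraries and 17863, 18182 and 17656 in the LPS/IFNγ libraries, a 3.94-fold rise (adjusted p = 6.68e-05). *H2-DMa*, which helps load peptides, rose by 1.36-fold. *H2-Aa*, a chain of the I-A molecule, fell by 1.23-fold, and *H2-Oa*, which inhibits peptide loading, fell from 48 ± 7.63 in LPS to 12.8 ± 10.9 in LPS/IFNγ (SD, n = 3 each). *Cd74*, the invariant chain, was 244140 ± 11722 in LPS and 254630 ± 8901 in LPS/IFNγ (SD, n = 3 each) and did not pass the test (log2 0.06 ± 0.25, SE), nor did *H2-Ab1* (-0.63 ± 0.25) or *H2-Eb1* (-0.45 ± 0.23). Over the list 2 of 10 genes rose and 2 fell, with a median of -0.278; without PBS replicate 3, 2 rose and 5 fell, with *H2-Ab1* and *H2-Eb1* among them, and with any 1 of the 6 LPS and LPS/IFNγ libraries left out 1 or 2 rose and 1 or 2 fell. In edgeR's fit the log2 fold change of *H2-Oa* was -1.83 with all libraries and -2.79 without LPS/IFNγ replicate 3. *H2-Aa* lost its call without LPS replicate 3 or LPS/IFNγ replicate 2 (adjusted p 0.0505 to 0.0609), and *H2-DMa* without LPS replicate 1 (0.0545).

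The MHC class I list leaned down, with 1 of 21 genes higher, 6 lower and a median of -0.467, and without PBS replicate 3 the lower genes were 15. *Psmb10*, a catalytic subunit of the immunoproteasome, had 23572, 22928 and 23840 in the LPS libraries and 5943, 5699 and 6127 in the LPS/IFNγ libraries, and the groups did not overlap (3.96-fold lower, adjusted p = 0.00686). The non-classical class I gene *H2-T22* fell by 3-fold and *H2-Q7*, *H2-Q6* and *H2-Q4* by 2.82-fold, 1.73-fold and 1.51-fold. Their cluster at chr17:35262730-36042747 also holds *H2-Q2*, which is no member of the list and was called higher, with a log2 fold change of 2.16. *H2-Q1*, *H2-Q10* and *H2-T24*, also there and outside the list, did not pass the test (-1.73, 0.61 and 0.09). *Tapbpl*, a peptide editor, fell by 1.49-fold, and *Tap1*, a subunit of the peptide transporter, rose by 1.2-fold. The classical genes *H2-K1* and *H2-D1*, at -0.39 ± 0.25 and 0.05 ± 0.13 (log2, SE), *B2m* at -0.05 ± 0.18 and the class I co-activator *Nlrc5* at -0.23 ± 0.20 did not pass the test, although *H2-K1* and *Nlrc5* did without PBS replicate 3. *Tap1* and *H2-Q7* lost their calls whichever of the 6 libraries was left out (adjusted p 0.0656 to 0.142), which left 0 genes of the list higher and 5 lower.

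Chemokines that attract T cells moved in opposite directions. *Cxcl9*, a ligand of CXCR3 and a classical IFNγ target gene, had 33463, 33602 and 30588 in the LPS libraries and 464250, 448720 and 471020 in the LPS/IFNγ libraries, which is 14.2-fold higher (log2 3.83 ± 0.16, SE, adjusted p = 4.24e-06). *Cxcl10*, another ligand of the same receptor, was at 381310, 382520 and 383660 in the LPS libraries and 279720, 278430 and 291130 in the LPS/IFNγ libraries and did not pass the test (log2 -0.43 ± 0.35), and the response element stands in the stretch shown for it. *Ccl17*, a ligand of CCR4, moved the other way with 439, 469 and 470.5 in the LPS libraries and 4.24, 2.1 and 0 in the LPS/IFNγ libraries, so that it was almost absent from the LPS/IFNγ libraries (228-fold lower, adjusted p = 1.76e-06). That fold rests on 6 counts in the LPS/IFNγ libraries: in edgeR's fit the log2 fold change was -7.71 with all libraries, -8.71 without LPS/IFNγ replicate 1, and at most -7.14 with any other of the 6 libraries left out. *Ccl22*, which shares that receptor, fell by 1.48-fold, and *Cxcl16* and *Ccl5* did not pass the test. In this list 1 of 6 genes rose and 2 fell, and *Ccl22* lost its call whichever of the 6 libraries was left out (adjusted p 0.0553 to 0.0751), when 1 gene was called lower. The fit of the 6 libraries alone called 1 gene of the list higher and 4 lower. Of 13 costimulatory and checkpoint ligands 3 rose and 2 fell (5 and 3 without PBS replicate 3): the CD28 ligand *Cd86* rose by 3.18-fold, from 5628 ± 131 in LPS to 17918 ± 235 in LPS/IFNγ (SD, n = 3 each), *Cd80* by 1.97-fold and *Pdcd1lg2*, the PD-1 ligand PD-L2, by 3.91-fold, whereas *Tnfsf9*, the ligand of 4-1BB, fell by 2.53-fold and *Icosl* by 1.62-fold. *Cd40* and *Cd274*, the gene of PD-L1, were at 0.68 ± 0.28 and 0.15 ± 0.17 (log2, SE) and did not pass the test, which *Cd40* passed without PBS replicate 3. *Pdcd1lg2* was at a low level, 17.4 ± 10.0 in LPS and 68.6 ± 15.1 in LPS/IFNγ (SD, n = 3 each), and lost its call without LPS replicate 2. Shares of calls among the costimulatory and checkpoint ligands were 23.1% higher and 15.4% lower, against 12.5% and 11.2% over all genes. Without PBS replicate 3 the latter were 21.6% and 29.8%.

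The IL-12 family split by subunit. IL-12 is the pair of p40 (*Il12b*) and p35 (*Il12a*), IL-23 is p40 with p19 (*Il23a*), and IL-27 is EBI3 with p28 (*Il27*). *Il12b* had 73655, 79751 and 78206 in the LPS libraries and 228520, 211730 and 216270 in the LPS/IFNγ libraries, a 2.83-fold rise (adjusted p = 0.00223). *Il23a* had 3726, 3719 and 4259 in the LPS libraries and 50.9, 48.4 and 52.1 in the LPS/IFNγ libraries, a fall of 77.3-fold (log2 -6.27 ± 0.24, SE, adjusted p = 4.53e-08), and was not seen in the PBS libraries. The gap between LPS and LPS/IFNγ was wide and the libraries of each group were close to each other. *Il12a* fell by 1.44-fold and *Ebi3* by 2.19-fold, while *Il27* was at 0.09 ± 0.23 and did not pass the test. *Il18bp*, the soluble antagonist of IL-18, rose by 1.84-fold as *Il18* fell by 1.53-fold, and *Il15ra* fell by 1.94-fold. *Tbx21*, the gene of T-bet, the transcription factor of type 1 lymphocytes, had 0 counts in LPS and 371 counts in LPS/IFNγ, at least 87.8-fold higher against a floor of 3 counts over the LPS group. In all 3 of 10 genes in the list rose and 5 fell, with a median of -0.488, and setting *Tbx21* at its bound left that median at -0.488. *Il18* lost its call without LPS replicate 1 (adjusted p = 0.0546).

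Inflammatory cytokines were mostly lower in LPS/IFNγ: 8 of 14 fell and 3 rose, with a median of -1.05. *Il1b* had 444720, 429370 and 453180 in the LPS libraries and 58641, 59654 and 60248 in the LPS/IFNγ libraries, a 7.43-fold fall (log2 -2.89 ± 0.14, SE, adjusted p = 4.53e-08), and *Il1a* fell by 4.48-fold. *Tnf* had 478680, 514660 and 512320 in the LPS libraries and 250970, 260280 and 261970 in the LPS/IFNγ libraries, 1.95-fold lower (adjusted p = 9.23e-06). The libraries of the groups were far apart for both genes, and both groups stood far above PBS (35.2 ± 6.2 and 707 ± 117). *Il10*, which restrains macrophage activation, fell from 2199 ± 299 in LPS to 361 ± 81.4 in LPS/IFNγ (SD, n = 3 each), and *Il19*, of the same family, by 8.73-fold. The growth factor gene *Csf2*, which encodes GM-CSF, had 574, 675 and 704 in the LPS libraries and 30.7, 26.3 and 36.5 in the LPS/IFNγ libraries, 20.8-fold lower. *Il6* fell by 2.21-fold and *Osm* by 1.4-fold. The rises were *Il1rn*, the receptor antagonist of IL-1, with 83689, 78786 and 77406 in the LPS libraries and 252290, 257480 and 264330 in the LPS/IFNγ libraries, the alarmin *Il33* at 5.5-fold and *Lif* at 1.96-fold. *Il1rn* rose by 3.23-fold in the libraries in which *Il1a* and *Il1b* fell. *Il6* lost its call whichever LPS/IFNγ library was left out (adjusted p 0.0512 to 0.0517) and *Osm* without LPS/IFNγ replicate 3 (0.0503).

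Chemokines for neutrophils and monocytes gave the lowest median of the lists, -1.57, with 8 of 13 genes lower and 3 higher. *Cxcl1*, *Cxcl2* and *Cxcl3*, ligands of CXCR2, fell by 12.4-fold, 7.72-fold and 15.3-fold, with *Cxcl2* at 132090, 133230 and 131130 in the LPS libraries and 16485, 18094 and 16796 in the LPS/IFNγ libraries. They lie in a cluster at chr5:90759360-90905938, where the fourth member, *Cxcl5*, was at -0.90 ± 0.40 (log2, SE) and did not pass the test. *Ccl3* and *Ccl4*, the macrophage inflammatory proteins, fell by 6.68-fold and 7.88-fold, with *Ccl3* at 567620, 556600 and 563930 in the LPS libraries and 77275, 84246 and 91096 in the LPS/IFNγ libraries. *Ccl2*, the main ligand of CCR2, fell by 3.17-fold, *Ccl7* by 2.6-fold and *Ccl9* by 2.98-fold. The 3 that rose were *Ccl24*, an eosinophil chemokine, at 6.2-fold, *Ccl8* at 2.32-fold and *Ccl12* at 1.73-fold. In the cluster at chr11:82035571-82116799, *Ccl2* and *Ccl7* fell while *Ccl8* and *Ccl12* rose. With any 1 of the 6 LPS or LPS/IFNγ libraries left out, 1 gene of the list was called higher and 8 lower, since *Ccl8* and *Ccl12* lost their calls (adjusted p 0.0901 to 0.146). *Cxcl5* passed the test without PBS replicate 3.

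**Figure D3:**
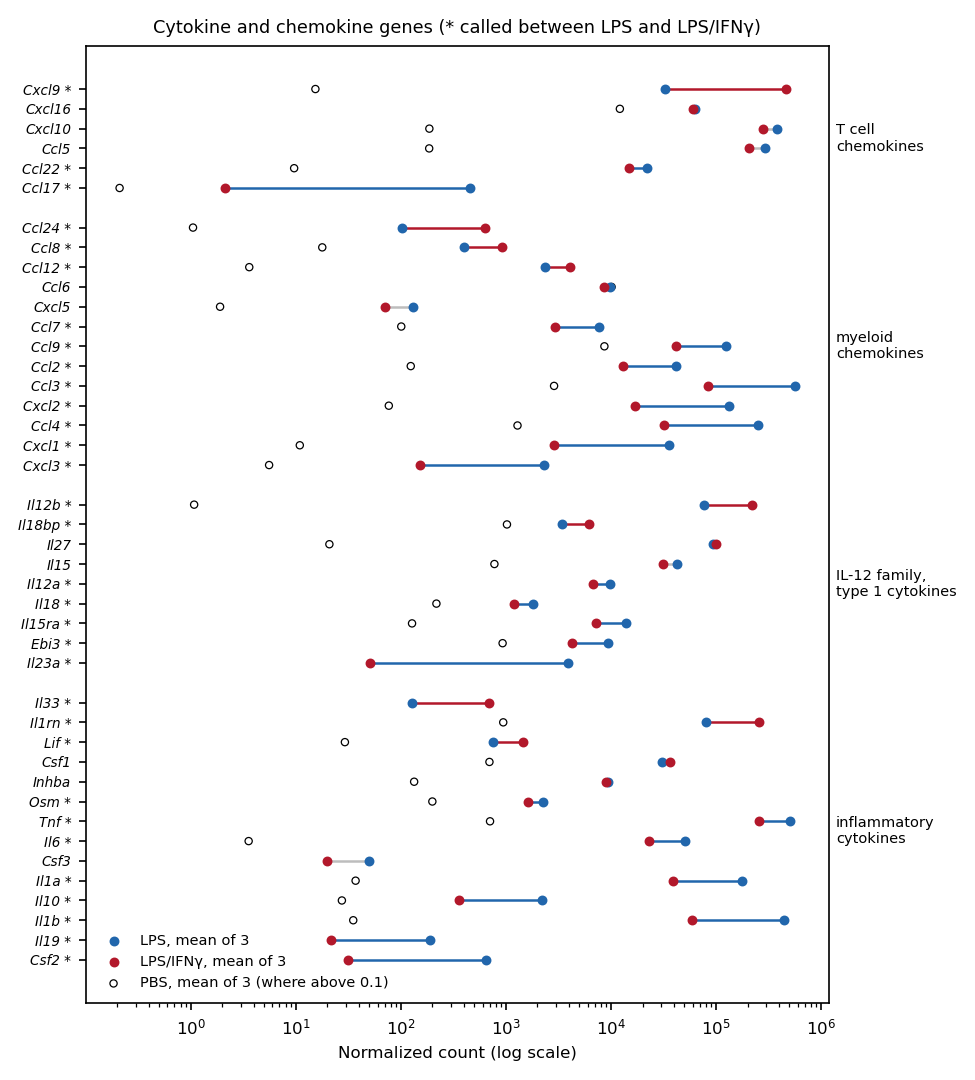
Group means of normalized counts (log scale) of cytokine and chemokine genes in 4 lists, with LPS in blue, LPS/IFNγ in red and PBS as open circles where the mean is above 0.1, and an asterisk on genes called between LPS and LPS/IFNγ. *Tbx21*, with 0 counts in LPS, is not drawn. Most lines of the myeloid chemokines and inflammatory cytokines run left from LPS to LPS/IFNγ, and *Cxcl9*, *Il12b* and *Il1rn* run right.

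Of 15 genes of the TLR4 receptor complex and its adaptors, 5 fell, none rose and 10 did not pass the test, with a median of -0.251. Without PBS replicate 3, 11 fell and 1 rose. *Cd14*, which delivers LPS to TLR4, had 95306, 93203 and 99893 in the LPS libraries and 29923, 27250 and 27461 in the LPS/IFNγ libraries, a 3.41-fold fall (adjusted p = 5.8e-06). *Tlr4* fell by 1.87-fold, the TRIF adaptor *Ticam2* by 2.21-fold and the kinase *Irak2* by 1.6-fold. *Irak3*, the inactive kinase that restrains TLR signalling, had 2300, 2181 and 2326 in the LPS libraries and 535, 590.2 and 580.1 in the LPS/IFNγ libraries. It fell by 3.99-fold, and its LPS/IFNγ level was below that of PBS (884 ± 262). *Myd88*, *Ly96*, *Traf6* and *Tbk1* did not pass the test, though *Ly96* and *Tbk1* did without PBS replicate 3. *Tlr4* lost its call whichever of the 6 libraries was left out (adjusted p 0.0537 to 0.0753). Of 14 genes for NF-κB subunits and inhibitors, 2 rose and 5 fell (4 and 9 without PBS replicate 3). *Nfkbia*, the inhibitor that NF-κB itself induces, fell by 1.76-fold, *Nfkbiz* by 1.71-fold, *Nfkbid* by 1.73-fold and *Relb* by 1.33-fold, and *Nfkbie* and *Tnip3* rose by 1.44-fold and 1.88-fold. *Rela* and *Nfkb1* were at -0.19 ± 0.06 and 0.14 ± 0.22 (log2, SE), and *Rela* passed the test without PBS replicate 3. *Relb* lost its call without LPS replicate 3 or any LPS/IFNγ library (adjusted p 0.0559 to 0.0772), and *Nfkbiz* whichever of the 6 libraries other than LPS replicate 1 was left out (0.0528 to 0.066), so that 2 to 5 genes of this list were then called lower. For both lists of this paragraph, the shares over all genes were 12.5% higher and 11.2% lower, or 21.6% and 29.8% without PBS replicate 3. The unsettled LPS dose of the combined group bears on the genes of both lists as on every other.

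Antiviral genes, which type I interferon induces, were lower or did not pass the test in most cases. Of 31 tested, 13 fell and 2 rose, with a median of -0.416; without PBS replicate 3, 21 fell and 3 rose, and with any 1 of the 6 libraries left out no gene of the list was called higher (adjusted p 0.073 to 0.179 for *Ifnb1* and *Eif2ak2*). *Ifit3* had 81778, 81771 and 76761 in the LPS libraries and 12652, 13246 and 16047 in the LPS/IFNγ libraries, a 5.73-fold fall (adjusted p = 8.36e-06), and *Ifit3b*, a close copy of it, fell by 6.96-fold. *Ifit1*, whose product binds viral RNA, had 213540, 215160 and 216570 in the LPS libraries and 60851, 63715 and 67789 in the LPS/IFNγ libraries, 3.35-fold lower. *Ifit2*, which lies in the same cluster at chr19:34550694-34650009, was at -0.33 ± 0.27 (log2, SE) and did not pass the test, while the other 4 members fell. *Rsad2*, the gene of viperin, and its neighbour *Cmpk2* fell by 2.77-fold and 2.59-fold, *Isg20* by 4.22-fold, *Mx1* by 2.1-fold and *Irf7*, the regulator of type I interferon genes, by 1.89-fold. *Isg15*, *Oas1a*, *Oas2*, *Oas3*, *Ifih1* and *Parp14* did not pass the test, with log2 fold changes between -0.40 and 0.01, and *Isg15*, *Oas1a* and *Oas2* passed it without PBS replicate 3. *Mx1* lost its call without LPS/IFNγ replicate 1 (adjusted p = 0.0553). The rises were *Ifnb1*, the gene of IFNβ, at 1.77-fold (1764 ± 212 in LPS and 3130 ± 160.4 in LPS/IFNγ, SD, n = 3 each), and *Eif2ak2* at 1.28-fold. All the antiviral genes named here remained above their PBS means, for *Ifit3* 613 ± 228 and for *Rsad2* 1088 ± 324. Among the stretches shown, the response element stands in those of *Ifit1*, *Ifit3* and *Rsad2*, which fell. It also stands in those of *Gbp2b*, *Socs1*, *Igtp* and *Tgtp1*, which rose, and of *Cxcl10*, which did not pass the test. The stretch of *Isg20* holds a gamma-activated site. These stretches are chosen examples, and whether either element went with the direction of change was not tested.

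**Figure D4:**
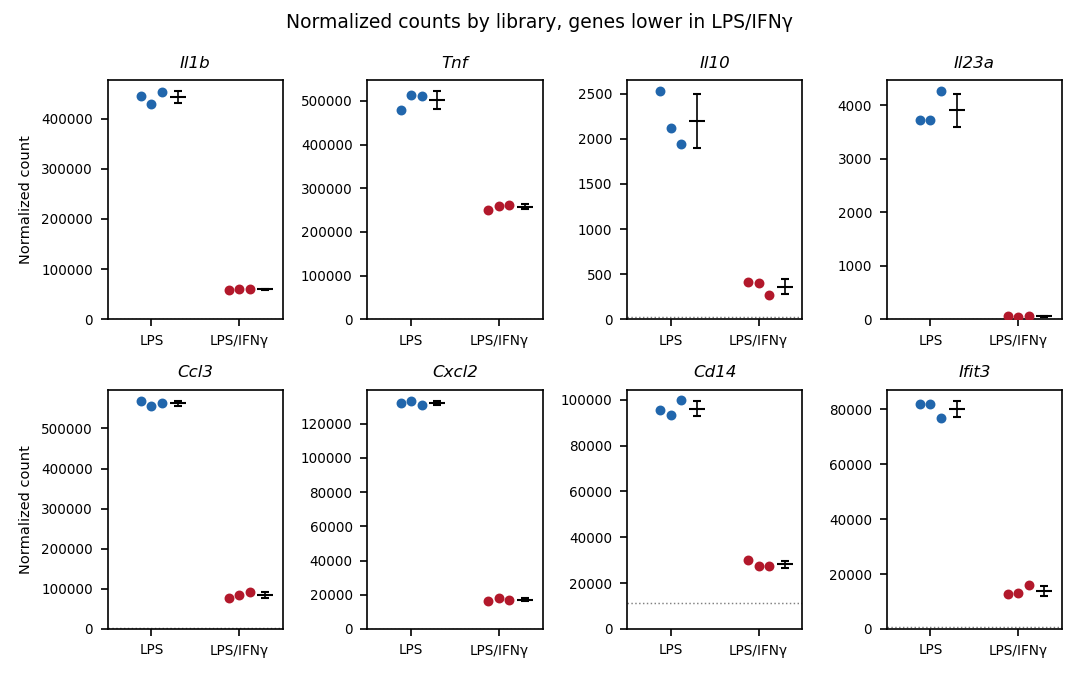
Normalized counts (linear axes from 0) of 8 genes in the 3 LPS libraries (blue) and the 3 LPS/IFNγ libraries (red), with the mean and SD in black beside them and the PBS mean as a dotted line. In each panel the 3 LPS/IFNγ libraries lie below the 3 LPS libraries, with *Il23a* close to 0.

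The PYHIN family, which includes sensors of cytosolic DNA, lies in a single cluster on chromosome 1, and 5 of the 12 listed genes rose and 2 fell. *Ifi202b*, which lies inside this cluster but was not in the list, was also called lower, with a log2 fold change of -1.14. *Ifi208* had 9.05, 12 and 2.94 in the LPS libraries and 183, 167 and 149 in the LPS/IFNγ libraries, 20.8-fold higher, and *Ifi214* rose by 2.34-fold. *Aim2*, the sensor that assembles an inflammasome, fell by 2.62-fold. These genes are similar in sequence, so that reads may have been shared among them. Among 20 genes of inflammasomes and cell death, 6 rose and 6 fell (8 and 10 without PBS replicate 3). The shares over all genes were 12.5% higher and 11.2% lower (21.6% and 29.8% without PBS replicate 3). *Nlrp3* fell by 1.81-fold, *Casp1* by 1.67-fold and *Gsdmd*, the pore-forming protein of pyroptosis, by 1.34-fold. *Ripk3* and *Ripk1*, kinases of necroptosis, rose by 2.18-fold and 1.94-fold, and *Casp8* by 1.57-fold, while *Mlkl* was at 0.20 ± 0.08 (log2, SE) and passed the test without PBS replicate 3. With any 1 of the 6 libraries left out, 3 or 4 genes of this list were called higher, and *Casp8* was not among them (adjusted p 0.0932 to 0.129). Of the 12 listed PYHIN genes 2 or 3 were then called higher and 1 or 2 lower.

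Among the effectors of macrophages, nitric oxide synthase, 2 activating Fc receptors and several complement genes rose. *Nos2*, the inducible nitric oxide synthase, had 86227, 92258 and 97716 in the LPS libraries and 226890, 231860 and 229450 in the LPS/IFNγ libraries, a 2.49-fold rise (adjusted p = 0.006), and its PBS mean was 9.04 ± 3.08. *Gch1* and *Ass1*, which supply its cofactor and its substrate, fell by 1.52-fold and 1.31-fold, *Arg2* rose by 1.93-fold, and *Arg1* was at 0.16 ± 0.79 (log2, SE). In this list 2 of 11 genes rose and 2 fell (2 and 6 without PBS replicate 3), and *Arg2* lost its call whichever of the 6 libraries was left out (adjusted p 0.0603 to 0.136), when 1 gene was called higher. *Ido1*, the enzyme that degrades tryptophan, rose at a low level, from 11.1 ± 4.08 in LPS to 72 ± 5.45 in LPS/IFNγ (SD, n = 3 each), and *Acod1*, which makes itaconate, was at -0.46 ± 0.22 and passed the test without PBS replicate 3. Of 6 genes for tryptophan and itaconate 3 rose and none fell, 4 rose and 1 fell without PBS replicate 3, and 1 was called higher with any 1 of the 6 libraries left out. The activating Fc receptor *Fcgr4* had 14965, 14981 and 14519 in the LPS libraries and 55989, 52128 and 55922 in the LPS/IFNγ libraries, 3.69-fold higher, and *Fcgr3* rose by 2.27-fold, whereas the inhibitory receptor *Fcgr2b* fell by 1.79-fold and *Fcgr1*, the high-affinity receptor, by 1.38-fold. *Fcgr4*, *Fcgr3* and *Fcgr2b* are neighbours at chr1:170958617-171064935. Of the NADPH oxidase subunits *Cybb* was at 0.15 ± 0.21, and *Ncf4* and *Rac2* fell by 1.69-fold and 1.62-fold. Complement genes rose in 5 of 14 cases and fell in none: *C1s1* by 2.97-fold, *C1ra* by 2.11-fold, *Serping1*, the inhibitor of both, by 1.88-fold, *C3* by 1.58-fold and *C5ar1* by 1.21-fold. With any 1 of the 6 libraries left out, 2 or 3 of them were called: *C3* and *C5ar1* lost their calls in every case (adjusted p 0.0937 to 0.179) and *C1s1* without LPS replicate 2 or 3 or LPS/IFNγ replicate 1 (0.0525 to 0.0736). For all lists of this paragraph, the shares over all genes were 12.5% higher and 11.2% lower. Without PBS replicate 3 they were 21.6% and 29.8%. The nitric oxide list, at 18.2% both ways, was not far from the former.

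Glycolysis genes rose in 4 of 18 cases and fell in 4 (7 and 7 without PBS replicate 3, and 2 or 3 higher and 3 or 4 lower with any 1 of the 6 LPS and LPS/IFNγ libraries left out). Over all genes 12.5% were called higher and 11.2% lower, or 21.6% and 29.8% without PBS replicate 3. *Hif1a*, the transcription factor that promotes glycolysis, rose by 2.38-fold, *Hk2*, the inducible hexokinase, by 2.49-fold (12765 ± 955 in LPS and 31748 ± 788 in LPS/IFNγ, SD, n = 3 each) and *Pfkp* by 1.68-fold, whereas *Pfkfb3* fell by 2.79-fold. *Hif1a* lost its call without LPS replicate 3, where its adjusted p rounded to 0.05. *Gapdh*, which has many processed copies in the genome, was 1.53-fold lower, and its value is uncertain for that reason. Sterol synthesis genes fell in 6 of 20 cases and rose in 2, with a median of -0.467, and without PBS replicate 3 they fell in 16 and rose in 4. *Fdft1*, which commits farnesyl groups to squalene, fell by 2.33-fold, *Sqle* by 1.81-fold and the sterol transporter *Stard4* by 1.86-fold, while *Mvd* and *Insig1*, the brake on SREBP processing, rose by 1.61-fold and 1.32-fold. Of 11 genes of LXR and cholesterol efflux, *Abcg1* rose by 2.15-fold and *Mylip* by 2.04-fold, and *Nr1h3*, the gene of LXRα, fell by 2.62-fold (2 higher and 4 lower without PBS replicate 3). *Mylip* lost its call whichever LPS library was left out (adjusted p 0.0547 to 0.0632), which left 1 gene higher.

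Some genes used to describe alternative activation rose and others fell, 4 and 3 of 14 (4 and 5 without PBS replicate 3). *Il4ra*, the receptor chain for IL-4 and IL-13, had 12696, 13243 and 13789 in the LPS libraries and 32318, 31167 and 31063 in the LPS/IFNγ libraries, 2.38-fold higher. *Pdgfc* rose by 5.03-fold and the mannose receptor *Mrc1* by 1.64-fold, whereas the scavenger receptor *Msr1* fell by 3-fold, *Klf4* by 3.43-fold and *Socs2* by 4.67-fold. With any 1 of the 6 libraries left out, 2 genes of the list were called higher and 3 lower, and *Mrc1* was not among them (adjusted p 0.073 to 0.104). Of 14 matrix metalloproteinases and inhibitors, *Mmp25* rose by 5.36-fold, and *Mmp14*, *Mmp3* and *Mmp10* fell by 2.78-fold, 3.09-fold and 1.85-fold (5 higher and 4 lower without PBS replicate 3). Among 16 AP-1 and growth response factors 3 rose and 6 fell (5 and 8 without PBS replicate 3). *Batf2*, which pairs with IRF1 in activated macrophages, had 9696, 9967 and 9674 in the LPS libraries and 49077, 48845 and 51248 in the LPS/IFNγ libraries, 5.08-fold higher, and *Batf3* rose by 2.45-fold, a call lost whichever of the 6 libraries was left out (adjusted p 0.102 to 0.131), when 1 gene of the list was called higher. *Fos*, *Junb*, *Batf*, *Egr2* and *Myc* were among those that fell, by 2-fold, 1.82-fold, 1.93-fold, 2.39-fold and 1.67-fold. Among cell cycle genes, 2 of 22 DNA replication genes rose and 5 fell, and 1 of 22 mitosis genes rose and 3 fell (3 and 8, and 5 and 7, without PBS replicate 3). For all lists of this paragraph, the shares over all genes were 12.5% higher and 11.2% lower. Without PBS replicate 3 these shares were 21.6% and 29.8%. With any 1 of the 6 libraries left out, 0 or 1 mitosis gene was called higher. *Mad2l1* of the spindle checkpoint fell by 3.09-fold, and *Cdk1*, *Top2a* and *Mki67* did not pass the test, which *Cdk1* and *Top2a* passed without PBS replicate 3.

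**Figure D5:**
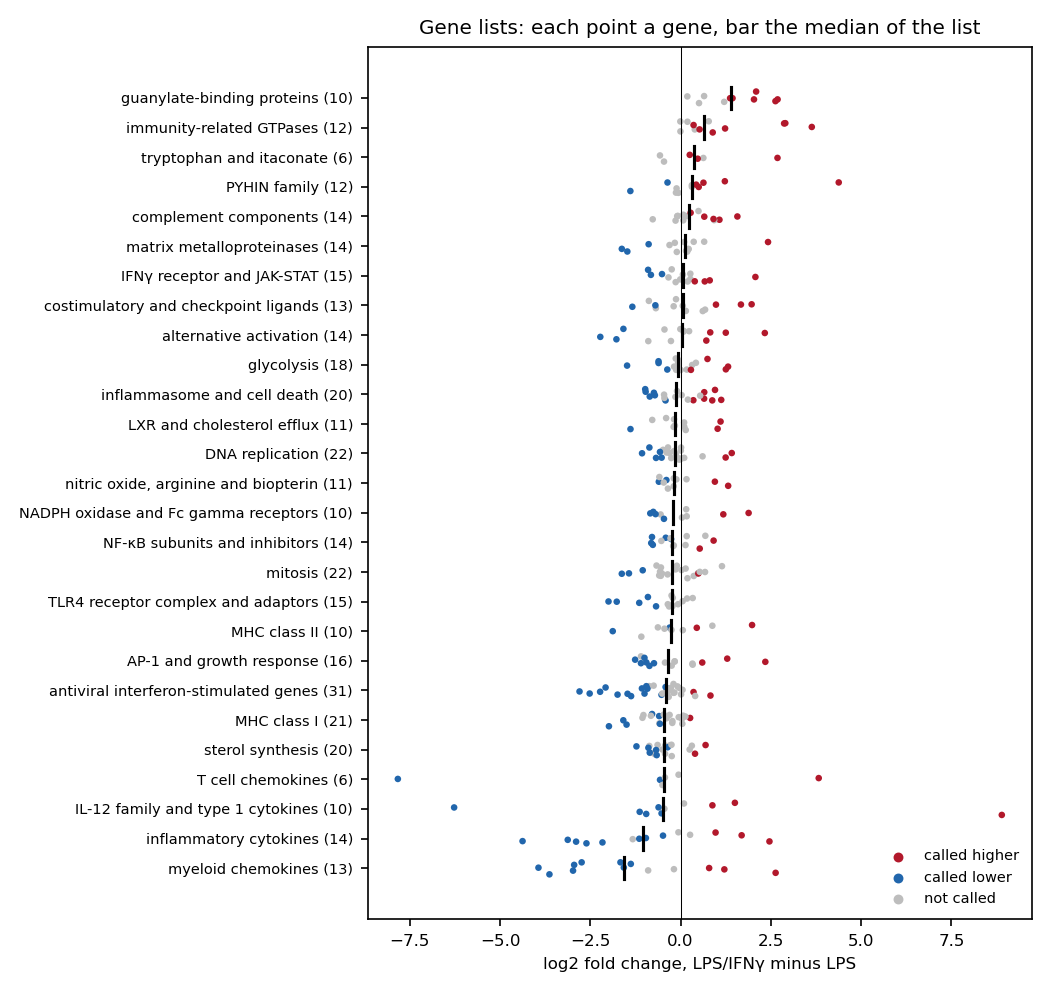
Log2 fold change (LPS/IFNγ minus LPS) of each tested gene in 27 lists, with the number of genes in parentheses and the median of each list as a black bar. Red points are called higher, blue points called lower and grey points not called, and the medians run from -1.57 for the myeloid chemokines to 1.40 for the guanylate-binding proteins.

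The largest rises, taken from called genes that averaged 100 normalized counts or more over the 6 libraries and whose groups did not overlap, were mostly of genes outside these pathways. *Lrrtm2*, a leucine-rich repeat protein known from synapses, had 2.58, 0 and 2.94 in the LPS libraries and 321, 281 and 335 in the LPS/IFNγ libraries, 166-fold higher (log2 7.38 ± 0.77, SE). *Crabp2*, which carries retinoic acid, had 31, 2.99 and 22.1 in the LPS libraries and 1502, 1484 and 1445 in the LPS/IFNγ libraries, and *Nanos1*, an RNA-binding regulator of translation, 18.1, 5.98 and 16.2 in the LPS libraries and 866, 788 and 867 in the LPS/IFNγ libraries. In all of these the LPS libraries held few reads and the LPS/IFNγ libraries many. They were followed by *Cd207*, the gene of langerin, at 41.6-fold, *Ccr2*, the receptor of CCL2, at 34.3-fold, *Gipc3* at 28.7-fold and the connexin *Gja4* at 27.3-fold, with 7.75, 23.9 and 8.82 in the LPS libraries and 397, 314 and 378 in the LPS/IFNγ libraries. In edgeR's fit the log2 fold change of *Gja4* was 4.79 with all libraries and 5.42 without LPS replicate 2. *Il18rap*, a chain of the IL-18 receptor, had 54.3, 121 and 121 in the LPS libraries and 1918, 2189 and 2232 in the LPS/IFNγ libraries, 21.5-fold higher. The glutamate transporter *Slc1a3*, the activin antagonist *Fst*, the Wnt antagonist *Sfrp1*, *Sectm1a* and *Mab21l3* rose by 17.2 to 20.7-fold, with *Mab21l3* at 339.9, 349.6 and 321 in the LPS libraries and 5906, 5595 and 5832 in the LPS/IFNγ libraries. That of *Sfrp1* was 4.33 on the log2 scale in edgeR's fit and 3.67 without LPS replicate 1. The PBS means were 2.26 ± 0.933 for *Lrrtm2*, 12.4 ± 3.64 for *Crabp2*, 154 ± 13.1 for *Ccr2* and 3.84 ± 2.79 for *Mab21l3* (SD, n = 3).

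The mitochondrial genes *mt-Atp6* (33.2-fold) and *mt-Co3* (17.6-fold) were also among the 15 largest rises, and here the libraries of other groups moved with them. Mean normalized counts of *mt-Atp6* were 863 in LPS/IFNγ and 26 in LPS, but also 536.6 in PBS, 737.3 in dsHMGB1 and 35.8 in frHMGB1. Of 13 mitochondrial protein genes, 6 were called higher and none lower, whereas *mt-Co1*, at 1.12-fold, and *mt-Cytb*, at 0.903-fold, were not called. Processed pseudogenes, which resemble the mRNAs they were copied from and were left out of the comparison, had a median log2 fold change of 1.60 over 2028 tested, and took 0.481% to 0.487% of the counts in LPS and 0.684% to 0.709% in LPS/IFNγ. Ribosomal protein genes, with many such copies, had a median of -0.601, with 0 of 80 called higher and 10 lower. Over all protein-coding genes, 335 differed by more than 2-fold between frHMGB1 and PBS replicates 1 and 2, and without them 1570 genes were called higher and 1422 lower in LPS/IFNγ. The part of this difference between libraries in the values of genes with near-identical copies was not tested.

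The 15 largest falls included the immune genes described above, *Ccl17*, *Il23a*, *Csf2*, *Cxcl3*, *Cxcl1* and *Il19*. *Shisa3* had 3343, 3342 and 3348 in the LPS libraries and 235, 241 and 212 in the LPS/IFNγ libraries, 14.6-fold lower, with libraries that were nearly equal within each group. *Rasgrp1*, an exchange factor of Ras, fell by 14.4-fold. *Lcn2*, which binds bacterial siderophores, and *Saa3*, an acute phase protein, both induced by NF-κB, fell by 12.4-fold and 11.9-fold, with *Saa3* at 43164, 38741 and 45524 in the LPS libraries and 3851, 3408 and 3450 in the LPS/IFNγ libraries. *Id3*, an inhibitor of basic helix-loop-helix factors, fell by 8.73-fold, and *Gdf15*, a stress-induced cytokine, by 8.34-fold, from 9730 ± 678 in LPS to 1167 ± 42.1 in LPS/IFNγ (SD, n = 3 each). The remaining genes were *Zfp658*, *Samsn1* and *Dpep3*, which fell by 8.56 to 12.1-fold.

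A switch from a mean below 10 to a mean of at least 100 normalized counts was seen in 12 genes, and the reverse in 1, *Ccl17*. The highest of the 12 in LPS/IFNγ were *Cd207*, *Lrrtm2*, *Acot10*, *Ifi208* and *Prkcq*, the gene of protein kinase C theta. *Prkcq* had 0, 8.96 and 14.7 in the LPS libraries and 134, 153 and 206 in the LPS/IFNγ libraries, and its log2 fold change in edgeR's fit was 4.44 with all libraries, 3.77 without LPS replicate 1 and 5.22 without LPS replicate 3. For 4 of the 12, *Acot10*, *mt-Atp8*, *Gm3839* and *Gm10358*, the means were under 10 in LPS and frHMGB1 but 59.5, 84.5, 105.5 and 121.4 in PBS, as the mean of *mt-Atp6* was also low in LPS and frHMGB1 and high in PBS. The part of that difference between libraries in these 4 genes was not tested. The other 8 had PBS means of at most 14.4. *Acot10* is a near-identical copy of another gene and was 174 in LPS/IFNγ against 5.19 in LPS, and its value carries the uncertainty given for the mitochondrial genes.

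Markers of other cell types were checked because *Cd207*, *Ccr2* and *Ccl17* are also used to describe dendritic cells and monocytes. In bulk samples, fewer cells of a type and less RNA per cell cannot be told apart. The 10 macrophage markers were present in all 6 libraries, with summed levels of 17400 to 18100 CPM in LPS and 14800 to 15200 CPM in LPS/IFNγ. The 8 dendritic cell markers summed to 325 to 349 CPM in LPS and 348 to 361 CPM in LPS/IFNγ, and 1 of them was at 0 in all 6 libraries. Within them, *Zbtb46*, a transcription factor of classical dendritic cells, rose by 2.64-fold (195 ± 17.8 in LPS and 514 ± 48.3 in LPS/IFNγ, SD, n = 3 each), *Ccr7* by 5.03-fold and *Clec9a* by 5.51-fold, while *Itgax* was at 0.04 ± 0.11 (log2, SE). *Ccr7* lost its call whichever of the 6 libraries other than LPS replicate 2 was left out, and *Zbtb46* without LPS replicate 1, LPS replicate 3 or LPS/IFNγ replicate 3 (adjusted p 0.059 to 0.0877). The log2 fold change of *Ccr7* in edgeR's fit was 2.36 with all libraries and 3.18 without LPS replicate 2. Neutrophil markers summed to 2.01 to 4.63 CPM, with 4 of 8 at 0. Of the 10 T and NK cell markers, 8 were at 0 in all 6 libraries, and the sum of 13.6 to 16.4 CPM came mostly from *Cd4*, which did not pass the test (0.07 ± 0.20). Fibroblast markers summed to 260 to 275 CPM in LPS and 276 to 281 CPM in LPS/IFNγ, and B cell and erythroid markers to at most 9.23 CPM. The part of these cells in the results was not tested.

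Total counts were 49653652 to 56128646 in the LPS libraries and 68552023 to 80925478 in the LPS/IFNγ libraries. Replicates correlated at Pearson's r of 0.991 to 0.992 in LPS and 0.994 in LPS/IFNγ. In simulated data, 84.2% of genes changed 4-fold and 54.3% of genes changed 2-fold were called. The simulated spread of each gene was that over all 15 libraries, PBS replicate 3 included. These shares thus describe the fit of 15 libraries and not the 6 libraries alone. A gene that missed the test may still have differed.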

How the data were processed

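RNA was sequenced from 15 BMDM samples, 3 per group. The authors prepared stranded mRNA libraries, aligned paired-end reads to GRCm38 with STAR and deposited counts per gene for 51763 Ensembl identifiers, without normalization; the counting program is not given in the sources used here. Their own cut-off, a log2 fold change of 2 without a p, came from DESeq2. GENCODE M21 held 51661 of them and gave gene types and coordinates; it lacked 102. No columns lacked a sample.

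From the counts, genes were filtered with filterByExpr (10 counts in a group's libraries, 15 in total) and tested with edgeR 4.0.16 (TMM, quasi-likelihood F test, 15 libraries in one fit, contrast LPS/IFNγ minus LPS, Benjamini-Hochberg over 16919 genes, threshold 0.05). Normalized counts, log2 fold changes and SEs came from DESeq2 1.42.0 in R 4.3.3, unshrunken. The test was tried on simulated counts with 200 of 15509 genes changed in the LPS/IFNγ group and the spread estimated over all 15 libraries. Of unchanged genes 0.0587% were called. Replicates of a group were not copies of one library (chi-square per degree of freedom 4.31 to 762.7). Depth set the precision, and PCR copies of a molecule are not independent.

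The comparison, the lists and the named genes were chosen with earlier results of these data known. Named genes were the 15 largest rises and falls of called genes (mean over 6 libraries 100 or more, no overlap), members of the lists and their neighbours within gene clusters, and genes that went from a mean under 10 to at least 100 or back. *mt-Co1* and *mt-Cytb* were named after their values were seen. Promoters came from RefSeq (GRCm38.p6), upstream part only. Processed pseudogenes and other non-coding types were left out of the comparison but not of the fit. Alternatives changed the normalization, filter, test, gene set, libraries and block. Values of a few genes are not reported here.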

Additional observations from a re-analysis of the deposited data

How the results depend on the processing

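All results below count protein-coding genes. The main counts were 1634 genes called higher and 1465 lower, and 277 and 176 past a log2 fold change of 2 in either direction. Calls moved by over 1.5 times in 3 settings: without PBS replicate 3 they were 2854 and 3938, with the LPS and LPS/IFNγ libraries alone 3263 and 4153 (and 112 genes below the fold cut-off), and in a test of a fold change above 2 they were 316 and 154. The fold cut-off was passed by 667 and 692 genes with no filter on low counts and by 177 and 88 with a filter of 1 CPM in 3 libraries. DESeq2's Wald test called 1739 and 1869 genes. With 1 of the 6 libraries left out, calls were 1098 to 1150 higher and 1204 to 1296 lower, and 294 to 358 genes were above the cut-off and 200 to 246 below; *Pias1*, *Tap1*, *Ccl22*, *Tlr4* and other genes named beside their results then lost their calls, 29 of 178 called named genes in all. None of the called named genes changed direction under the alternatives in which it was tested. The direction of all called genes was compared only in the 6-library fit, where 3055 of 3099 were called the same way. Another scaling moved the median log2 fold change little, to -0.063 with RLE and 0.0157 with protein-coding genes alone, against -0.0267 in edgeR's main fit.

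The replicate numbers did not pair the samples: deviations of same-numbered LPS and LPS/IFNγ libraries correlated at 0.00503, 0.00818 and 0.00777, and not every library correlated best with its own number. A replicate block called 1529 genes higher and 1346 lower, and 293 and 182 were past the fold cut-off. Shares over genes in a promoter window of 100 bases are likewise not reported here. Depth of 49653652 counts or more per library leaves small changes in genes with few reads undetectable, and the technical replicates leave the spread between mice unknown.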
